A study of Mus musculus with 10 samples.

Results

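The dual specificity MAP kinase phosphatases were described here by 10 genes, Dusp1, Dusp2, Dusp3, Dusp4, Dusp5, Dusp6, Dusp7, Dusp10, Dusp16 and Dusp22. Their rows were taken by gene symbol from a raw gene count table of 39488 rows, of which 29700 were not circular RNAs. RNA was sequenced on the BGISEQ-500 platform from peritoneal macrophages of C57BL/6 mice aged 8 weeks, 5 control and 5 ox-LDL libraries, described by the submitters as biological replicates. The cells were elicited with thioglycollate, an irritant that draws monocytes into the peritoneal cavity, and collected on the third day. The ox-LDL cells had been primed with LPS (100 ng/ml), the bacterial endotoxin that activates TLR4, and then held with oxidized low-density lipoprotein (ox-LDL, 100 µg/ml) for 16 h. The control cells were labelled as untreated, while the description of the priming can also be read as covering both groups. Read by the labels, every difference below contains LPS and ox-LDL together, and their effects cannot be told apart. Whether libraries of the same group came from separate mice or from cultures of pooled cells is not given in the sources used here.

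MAP kinases are switched on when an upstream kinase phosphorylates a threonine and a tyrosine in their activation loop. Dual specificity phosphatases remove both phosphates and thereby end the signal of ERK, JNK and p38, the MAP kinases that carry Toll-like receptor signals to cytokine genes. Nuclear members such as Dusp1, Dusp2, Dusp4 and Dusp5 are encoded by inducible genes that are themselves switched on by MAP kinase signalling, and so act as negative feedback, whereas Dusp6 and Dusp7 act on ERK in the cytoplasm, Dusp10 and Dusp16 act on JNK and p38, and the small atypical members Dusp3 and Dusp22 lack the kinase-binding domain of the others. In macrophages Dusp1 is best known for limiting p38 and JNK activity after LPS.

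The promoters of Dusp1, Dusp2 and Dusp5 are shown because these 3 genes encode nuclear inducible members and because the first and the last hold matches to elements of immediate early genes. Windows from 250 bases before to 50 bases after the start site were taken from RefSeq (GRCm38.p6), 5′ to 3′ on the strand of the gene, and capitals mark the full motif matches. Each window also matched once on its mm9 chromosome, at chr17:26645368-26645667 (minus strand) for Dusp1, chr2:127161645-127161944 (plus strand) for Dusp2 and chr19:53603385-53603684 (plus strand) for Dusp5.
Dusp1: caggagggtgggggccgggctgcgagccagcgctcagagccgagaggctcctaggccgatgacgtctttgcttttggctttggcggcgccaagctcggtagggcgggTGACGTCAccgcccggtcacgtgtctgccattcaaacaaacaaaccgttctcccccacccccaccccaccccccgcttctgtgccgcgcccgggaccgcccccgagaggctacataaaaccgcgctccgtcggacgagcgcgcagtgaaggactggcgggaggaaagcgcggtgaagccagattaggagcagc
Dusp2: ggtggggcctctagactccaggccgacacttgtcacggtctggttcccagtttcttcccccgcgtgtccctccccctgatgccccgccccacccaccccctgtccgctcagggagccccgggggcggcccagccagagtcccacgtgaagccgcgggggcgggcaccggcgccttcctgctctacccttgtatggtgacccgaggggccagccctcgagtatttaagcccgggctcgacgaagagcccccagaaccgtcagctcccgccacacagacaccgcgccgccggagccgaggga
Dusp5: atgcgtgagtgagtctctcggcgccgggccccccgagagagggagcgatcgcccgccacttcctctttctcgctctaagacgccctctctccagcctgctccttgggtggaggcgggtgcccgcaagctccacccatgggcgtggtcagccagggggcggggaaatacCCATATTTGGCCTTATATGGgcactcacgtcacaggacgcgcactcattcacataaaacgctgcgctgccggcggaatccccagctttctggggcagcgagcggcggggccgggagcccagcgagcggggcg
The capitals in Dusp1 are a cyclic AMP response element (TGACGTCA) that begins 143 bases before the start site. In Dusp5 they are a pair of adjoining CArG boxes, the element bound by serum response factor, which begin 82 and 72 bases before the start. Dusp2 holds none of these and carries only the core of the response element (TGACG) on the opposite strand. Promoters were given for 9 of the 10 genes, all but Dusp4. Among these 9, both strands were searched, and 1 held the full response element, 4 (Dusp1, Dusp2, Dusp5 and Dusp16) its core, which every full element also contains, 1 a CArG box and none the AP-1 site TGANTCA. An NF-kB site matched in 1 of the 9, Dusp22, at overlapping positions. Over all 32851 promoters of the same length, the shares were 1.79% for the full element, 20.8% for the core, 1.63% for the CArG box, 7.81% for the AP-1 site and 5.80% for the NF-kB site. The 9 promoters were GC rich, with 57.3% to 79.0% G and C against a median of 52.7% over all promoters.

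In the RNA itself, Dusp1 and Dusp2 share the longer core of AU-rich elements, short repeats of AUUUA in the 3′ UTR that mark transcripts for rapid decay. The shorter ATTTA alone was found 4 times each in Dusp1, Dusp2 and Dusp3 and 3 times each in Dusp10 and Dusp16. It was found 2 times in Dusp4, 1 time each in Dusp5 and Dusp6 and 0 times in Dusp7 and Dusp22. Per kilobase this was 5.80 for Dusp1, 6.88 for Dusp2 and at most 2.70 (Dusp10) for the others. The core TATTTAT was found 3 times in the 690 bases of the Dusp1 3′ UTR and 1 time in the 581 bases of that of Dusp2, and in none of the other 8 transcripts (mm9, GENCODE). A core was present in 29.1% of the 9606 tested genes with a 3′ UTR. Among genes with a 3′ UTR of similar length, the share was 17.9% for the length of Dusp1 and 16.0% for that of Dusp2. The 2 sites below are written as DNA, with ATTTA and the overlapping repeats in capitals.
Dusp1 site: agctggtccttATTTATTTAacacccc
Dusp2 site: cagcactttatATTTAtatagaacatt

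All 10 genes passed the filter on low counts. Expression is given as CPM, counts scaled to a common library size after TMM normalization, which compares a gene between libraries, and as FPKM, which also divides by length and compares genes with each other. A gene was called at an adjusted p below 0.01 in edgeR's quasi-likelihood test. By that rule 4 of the 10, Dusp1, Dusp4, Dusp10 and Dusp16, were higher in ox-LDL libraries, where 9.40% of the 12654 genes tested were called higher. Another 2, Dusp3 and Dusp22, were lower, where 5.35% of all genes were called lower. With both directions together, 6 of 10 were called against 14.7% of all genes. Dusp4 and Dusp10 were called with an absolute log2 fold change above 2, as were 6.71% of all genes. At an adjusted p below 0.05, Dusp7 was added to the lower genes, which gave 4 higher (16.2% of all genes), 3 lower (10.4%) and 7 in either direction (26.6%). By CPM the groups did not overlap for 6 of the 10 genes (20.7% of all genes), higher for Dusp4, Dusp10 and Dusp16 (11.6% of all genes) and lower for Dusp3, Dusp7 and Dusp22 (9.11%). By FPKM, which is not scaled by TMM, the groups did overlap for Dusp4, Dusp16 and Dusp7. The median log2 fold change was 0.22 over the 10 and 0.10 over all genes tested. In bulk RNA, a change in RNA per cell cannot be told apart from a change in the number of cells that express the gene.

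**Figure D1:**
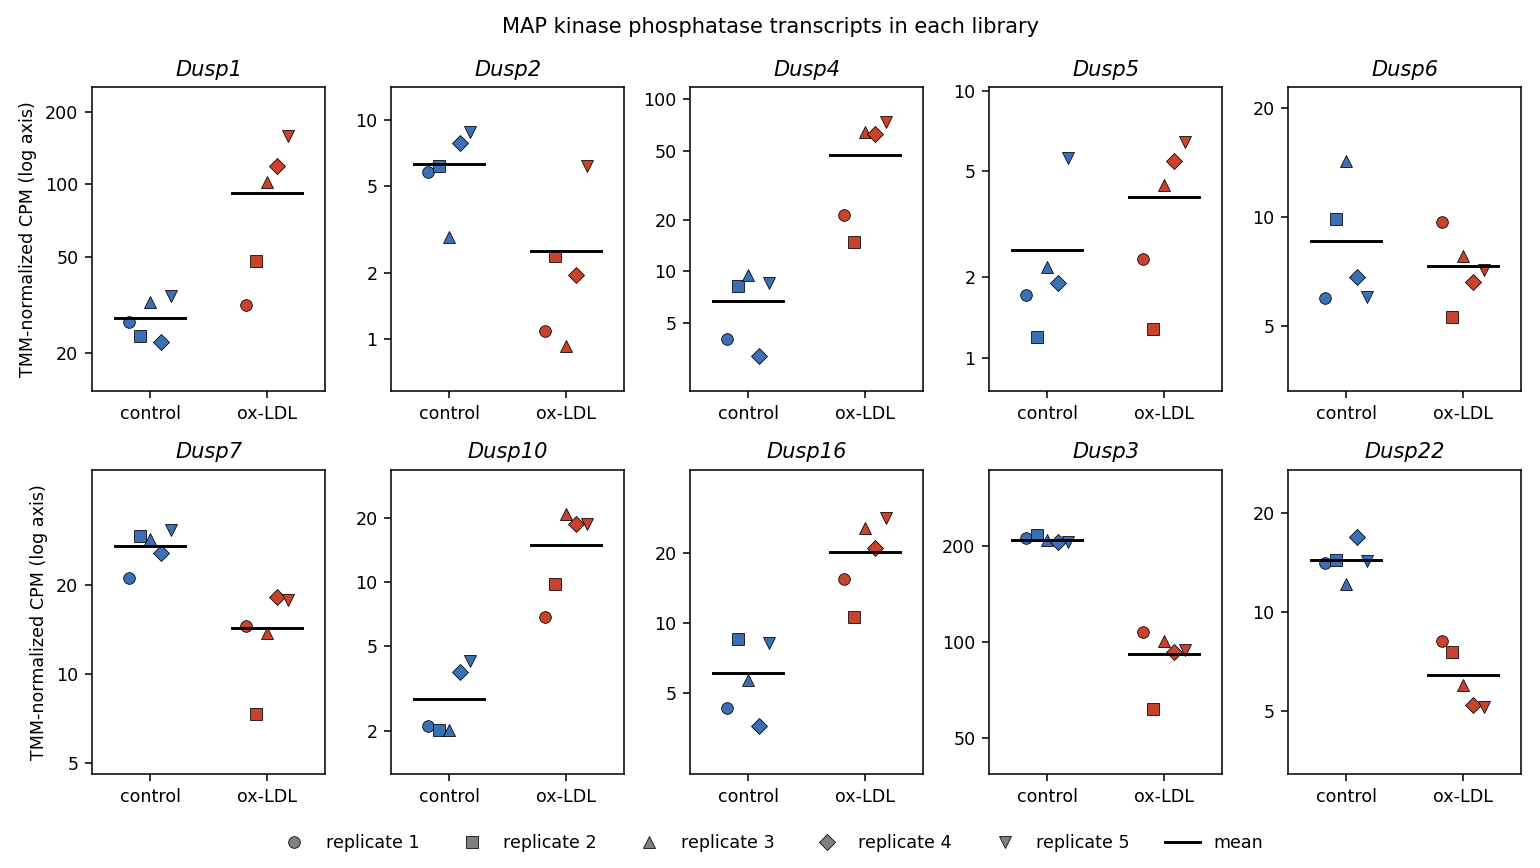
TMM-normalized CPM (log axis) of each of the 10 phosphatase transcripts in the 5 control (blue) and 5 ox-LDL (red) libraries, with replicate numbers as marker shapes and horizontal bars at the group means. Dusp4, Dusp10 and Dusp16 lie higher and Dusp3, Dusp7 and Dusp22 lower in every ox-LDL library than in any control, while Dusp5 and Dusp6 overlap widely.

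Libraries were of even depth, with 20094647 to 20687289 counts in controls and 19257131 to 20358017 in ox-LDL libraries. The TMM factor of ox-LDL replicate 2 was 0.593, whereas the other 9 factors lay between 0.837 and 1.19. The labelled cell type was checked by marker genes. All 8 macrophage markers, including Adgre1, Csf1r and Cd68, were detected, at a summed 23168 to 42854 CPM (scaled by library size) in controls and 13363 to 28376 in ox-LDL libraries. Most of this sum was Lyz2, which encodes lysozyme (20597 to 40915 CPM against 9361 to 26339), and the other 7 markers together lay at 1939 to 3606 and 2037 to 4856 CPM. Of the 8 markers, 6 had the higher mean in ox-LDL libraries, and the exceptions were Lyz2 and Itgam. All 8 mesothelial and stromal markers summed to 16.2 to 57.5 CPM in controls and 65.7 to 176 in ox-LDL libraries, and 6 of them had the higher mean in ox-LDL libraries. The stromal Dcn, Col1a1, Col1a2 and Pdgfra held most of the sum there. The mesothelial markers had control and ox-LDL means of 1.36 and 2.11 for Wt1, 0.544 and 0.084 for Upk3b, 0.503 and 0.444 for Krt19 and 0.111 and 0.114 for Msln. The 7 neutrophil markers summed to 17.9 to 44.0 and 24.3 to 92.3, with means of 10.5 and 56.0 for S100a8, but 20.4 and 7.81 for Mmp8 and 0.502 and 0.051 for Cxcr2. Of the 7, 3 had the higher mean in ox-LDL libraries and 4 the lower. Beside S100a8, the higher ones were Camp (0.020 and 0.459) and Ngp (0.020 and 0.135). Without S100a8 the neutrophil sums were 6.09 to 37.6 and 2.13 to 11.4. The 7 eosinophil and mast cell markers summed to 3.01 to 8.86 CPM in controls and 0.626 to 2.50 in ox-LDL libraries. Of the 7, 2 had the higher mean in ox-LDL libraries and 5 the lower, with Prg2 and Ms4a2 at no more than 3 counts in any library. The 6 dendritic cell markers lay at 1.65 to 2.79 and 2.79 to 4.46 CPM, and all but Cd209a (means of 0.857 and 0.010) had the higher mean in ox-LDL libraries. The 6 B cell markers lay at no more than 3.73 CPM and the 6 T cell markers at no more than 1.75, with Cd3e and Cd3g at no more than 3 counts. The 5 resident peritoneal macrophage markers lay at 29.1 to 65.4 and 19.6 to 41.8 CPM. The sums of the mesothelial and stromal and of the eosinophil and mast cell markers did not overlap between groups, and the part of these levels in the results on the phosphatases was not tested.

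Among the nuclear inducible members, Dusp1 and Dusp4 rose, Dusp2 was lower without passing the threshold, and Dusp5 was not called. Dusp4 (NCBI gene 319520, chromosome 8, 35870351 to 35882948, plus strand of mm9) encodes a nuclear phosphatase of ERK and JNK. Its level was 4.04, 8.26, 9.54, 3.24 and 8.56 CPM in control replicates 1 to 5 and 21.4, 14.8, 64.5, 63.0 and 73.1 CPM in ox-LDL replicates 1 to 5. In CPM every ox-LDL library lay above every control, and replicates 1 and 2 lay far below the other 3 of their group. In FPKM, which is not scaled by TMM, ox-LDL replicate 2 (2.74) lay within the control range (1.21 to 3.86). The means were 6.73 ± 2.87 and 47.4 ± 27.1 CPM (SD, n = 5 each), and the log2 fold change of 2.81 had a standard error of 0.48 with an adjusted p of 0.00131 by edgeR's quasi-likelihood test. It was the largest change among the 10 and stood at the 97.0th percentile of the log2 fold changes of all genes tested. The exact permutation test of the CPM values gave p = 0.00794 (two-sided), the smallest that 5 against 5 libraries allow.

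Dusp1 (NCBI gene 19252, chromosome 17, 26642535 to 26645464, minus strand of mm9) carries the response element and the AU-rich sites shown above. It was at 26.8, 23.5, 32.5, 22.2 and 34.4 CPM in the controls and at 31.7, 47.9, 103, 120 and 158 CPM in ox-LDL replicates 1 to 5. Replicate 1 fell within the control range, replicate 2 stood above it, and the other 3 were clearly higher. In FPKM, replicate 2 (15.5) also fell within the control range (11.9 to 21.7). The mean moved from 27.9 ± 5.40 to 92.0 ± 52.1 CPM (SD, n = 5 each), and the log2 fold change of 1.72 had a standard error of 0.38 with an adjusted p of 0.00611 by edgeR's quasi-likelihood test. The exact permutation test gave p = 0.0238 (two-sided). This call was close to the threshold: it was lost in 8 of the 10 fits that left out 1 library (any of the 5 controls, or ox-LDL replicate 3, 4 or 5), with adjusted p between 0.00101 and 0.0204 over the 10, although the log2 fold change stayed between 1.42 and 1.94. With all libraries kept, it was also lost in edgeR with library size alone (adjusted p = 0.0205) or a block for replicate number (0.0126). The same held for limma-voom (0.0114) and for limma on log2(FPKM + 1) (0.0384) and log2(FPKM + 0.1) (0.0420).

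Dusp2 (NCBI gene 13537, chromosome 2, 127161895 to 127164112, plus strand of mm9) encodes a nuclear phosphatase first found in activated lymphocytes. It was at 5.75, 6.12, 2.91, 7.83 and 8.77 CPM in the controls and at 1.09, 2.40, 0.927, 1.96 and 6.15 CPM in ox-LDL replicates 1 to 5. In ox-LDL, 4 of 5 libraries lay below all controls, and replicate 5 lay within the control range. The means were 6.28 ± 2.25 and 2.50 ± 2.13 CPM (SD, n = 5 each), and the log2 fold change of -1.33 had a standard error of 0.50 with an adjusted p of 0.0672 by edgeR's quasi-likelihood test. Without ox-LDL replicate 5 the log2 fold change was -1.999 and the adjusted p 0.00554, below the threshold. The values rest on few reads, 68 to 202 counts in controls and 19 to 103 in ox-LDL libraries.

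Dusp5 (NCBI gene 240672, chromosome 19, 53603599 to 53616921, plus strand of mm9) encodes a nuclear phosphatase specific for ERK, and its promoter holds the CArG boxes shown above. Its level was 1.71, 1.20, 2.18, 1.91 and 5.60 CPM in the controls and 2.35, 1.28, 4.44, 5.45 and 6.45 CPM in ox-LDL libraries. Control replicate 5 lay above 4 of the ox-LDL libraries, so the groups overlapped widely. The log2 fold change came to 0.67 with a standard error of 0.49 and an adjusted p of 0.350 by edgeR's quasi-likelihood test. With 1 library left out it ranged from 0.41 (without ox-LDL replicate 5) to 1.19 (without control replicate 5). The values rest on 15 to 129 counts per library.

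Both phosphatases of JNK and p38 rose. Dusp10 (NCBI gene 63953, chromosome 1, 185837181 to 185899515, plus strand of mm9) was at 2.10, 2.01, 2.01, 3.76 and 4.26 CPM in the controls and at 6.83, 9.76, 20.9, 18.6 and 18.7 CPM in ox-LDL libraries. No library of one group reached the range of the other, and ox-LDL replicates 1 and 2 were again the lowest of their group. From 2.83 ± 1.09 to 15.0 ± 6.24 CPM (SD, n = 5 each) the log2 fold change came to 2.40 with a standard error of 0.36 and an adjusted p of 5.80e-04 by edgeR's quasi-likelihood test. The gene overlaps 1700056E22Rik, which is read in the other direction. The sources used here do not say if strand was used in counting, so reads of the 2 genes may not have been separated.

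Dusp16 (NCBI gene 70686, chromosome 6, 134665488 to 134742643, minus strand of mm9) encodes the second phosphatase of JNK and p38. It was at 4.31, 8.56, 5.69, 3.61 and 8.25 CPM in the controls and at 15.5, 10.6, 25.5, 21.0 and 28.4 CPM in ox-LDL libraries. The lowest ox-LDL library, replicate 2, was only a little above the highest control. In FPKM, replicate 2 (1.26) lay within the control range (0.71 to 1.99). The means were 6.08 ± 2.25 and 20.2 ± 7.24 CPM (SD, n = 5 each), and the log2 fold change of 1.73 had a standard error of 0.32 with an adjusted p of 0.00209 by edgeR's quasi-likelihood test. Exact permutation tests gave p = 0.00794 for Dusp10 and for Dusp16. Both calls were kept whichever library was left out, but that of Dusp16 was lost when counts were scaled by library size alone (adjusted p = 0.0182).

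For all of Dusp1, Dusp4, Dusp10 and Dusp16, ox-LDL replicates 1 and 2 were the lowest 2 of their group, in CPM as in FPKM. The same libraries held the highest 2 levels of Dusp22 in CPM, though not in FPKM. Among ox-LDL libraries they also had the highest Lyz2 (16714 and 26339 CPM), whereas the other 7 macrophage markers together were highest in replicate 1 (4856) and lowest in replicate 2 (2037). The part of these levels in the spread was not tested.

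The cytoplasmic ERK phosphatases did not pass the threshold. Dusp7 (NCBI gene 235584, chromosome 9, 106270963 to 106278055, plus strand of mm9) was at 21.1, 29.5, 28.6, 25.8 and 30.7 CPM in the controls and at 14.6, 7.36, 13.8, 18.3 and 17.8 CPM in ox-LDL libraries. The groups did not overlap in CPM, and the lowest value was that of ox-LDL replicate 2. In FPKM, ox-LDL replicate 4 (6.39) stood above control replicate 1 (6.11). The means were 27.1 ± 3.81 and 14.4 ± 4.38 CPM (SD, n = 5 each), and the log2 fold change of -0.91 had a standard error of 0.24 with an adjusted p of 0.0136 by edgeR's quasi-likelihood test. The exact permutation test gave p = 0.00794 (two-sided). Without ox-LDL replicate 2 the log2 fold change was -0.79 with an adjusted p of 0.00251, and DESeq2 gave an adjusted p of 0.00135. Of 24 alternative fits, however, 17 left the adjusted p of Dusp7 above the threshold, up to 0.0585 with library size alone in edgeR.

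Dusp6 (NCBI gene 67603, chromosome 10, 98725865 to 98730122, plus strand of mm9), the feedback phosphatase of cytoplasmic ERK, was at 5.97, 9.89, 14.3, 6.85 and 6.04 CPM in the controls and at 9.70, 5.31, 7.80, 6.65 and 7.17 CPM in ox-LDL libraries. The ranges overlapped widely, with ox-LDL replicate 2 below every control and control replicates 2 and 3 above every ox-LDL library. The log2 fold change came to -0.23 with a standard error of 0.28 and an adjusted p of 0.587 by edgeR's quasi-likelihood test. Without control replicate 3, the highest library, it changed sign to 0.02, so no direction can be given.

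Both atypical phosphatases fell. Dusp3 (NCBI gene 72349, chromosome 11, 101832457 to 101848327, minus strand of mm9) encodes a small phosphatase of ERK and JNK and was the most abundant of the 10 in control cells by FPKM. After TMM scaling its level was nearly the same in every control, at 212, 217, 210, 206 and 206 CPM, a coefficient of variation of 2.13%. Without that scaling, in FPKM, it ran from 49.0 to 66.3 in controls. It was 108, 61.9, 101, 93.5 and 94.8 CPM in ox-LDL libraries, with replicate 2 as the lowest. The means of 210 ± 4.47 and 91.8 ± 17.6 CPM (SD, n = 5 each) differed by a log2 fold change of -1.19 with a standard error of 0.19 and an adjusted p of 6.59e-04 by edgeR's quasi-likelihood test, a level 2.29 times lower.

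Dusp22 (NCBI gene 105352, chromosome 13, 30751868 to 30803100, plus strand of mm9) encodes an atypical phosphatase known for its action on JNK signalling and on the kinase Lck in T cells. It was at 14.1, 14.3, 12.1, 16.8 and 14.3 CPM in the controls and at 8.13, 7.54, 6.00, 5.21 and 5.14 CPM in ox-LDL libraries. Every ox-LDL library lay below every control. The fall from 14.3 ± 1.68 to 6.40 ± 1.36 CPM (SD, n = 5 each) was a log2 change of -1.16 with a standard error of 0.19 and an adjusted p of 9.19e-04 by edgeR's quasi-likelihood test. Exact permutation tests gave p = 0.00794 for Dusp3 and for Dusp22. The calls of Dusp3, Dusp4, Dusp10 and Dusp22 were kept in all 24 alternative fits.

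**Figure D2:**
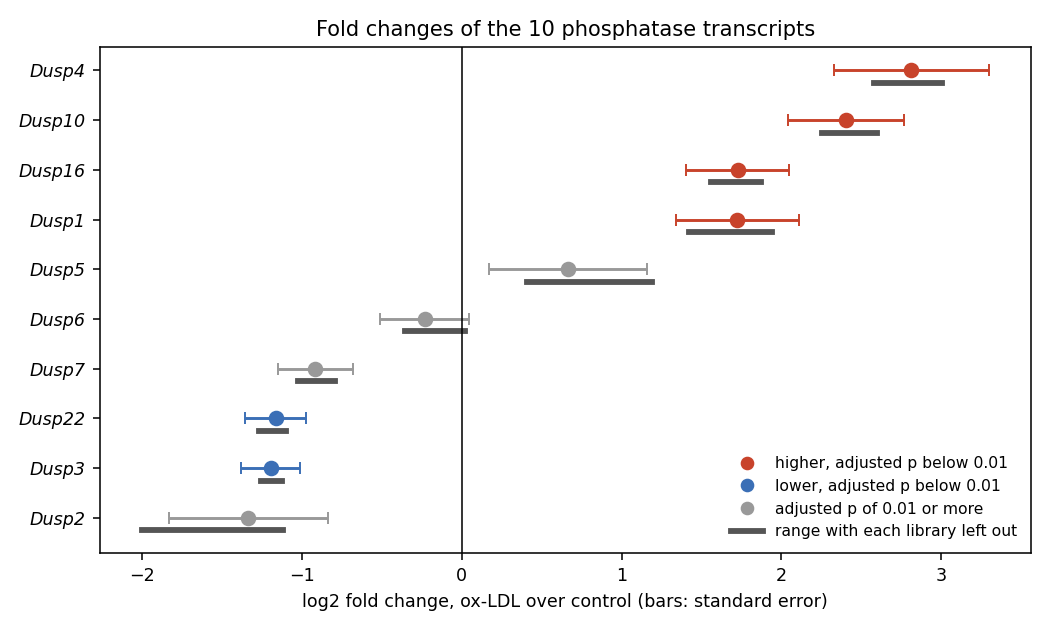
Log2 fold change of each of the 10 phosphatase transcripts, ox-LDL over control, with its standard error (thin bars), coloured by direction where the adjusted p of edgeR's quasi-likelihood test was below 0.01. Thick grey bars span the values with each of the 10 libraries left out in turn, and of the 10 only Dusp6 crosses 0.

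Levels of different genes were compared by FPKM. In control cells the order ran from Dusp3 (59.5 ± 7.47 FPKM, SD, n = 5) over Dusp1 (16.6 ± 4.49), Dusp22 (9.49 ± 1.52), Dusp7 (9.44 ± 2.25), Dusp2 (4.60 ± 1.69), Dusp6 (3.86 ± 1.71), Dusp4 (2.56 ± 1.23), Dusp5 (1.44 ± 0.97) and Dusp16 (1.35 ± 0.60) to Dusp10 (1.28 ± 0.42). Dusp3 and Dusp1 were the only neighbours in this order whose ranges did not overlap. In ox-LDL cells Dusp1 came first (48.4 ± 28.2 FPKM), followed by Dusp3 (23.1 ± 9.19), Dusp4 (15.9 ± 9.69), Dusp10 (5.70 ± 2.90), Dusp7 (4.53 ± 1.91), Dusp16 (4.03 ± 1.69), Dusp22 (3.80 ± 1.39), Dusp6 (2.80 ± 1.22), Dusp5 (1.91 ± 1.06) and Dusp2 (1.51 ± 1.15). There the ranges of all neighbours overlapped, and Dusp1 exceeded Dusp3 in 4 of 5 libraries, replicate 1 being the exception (20.8 against 33.4 FPKM).

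The summed FPKM of the 10 genes had a similar mean in both groups, 110 in controls and 112 in ox-LDL libraries, but a different spread. It ran from 85.9 to 126 in controls (median 116) and from 38.2 to 154 in ox-LDL libraries (median 138). The ox-LDL median lay above the highest control, and the lowest sum was that of ox-LDL replicate 2. The make-up of the sum differed too. Dusp3 held 50.5% to 57.1% of the sum in controls and 13.9% to 38.1% in ox-LDL libraries, and Dusp1 14.9% ± 2.43 and 41.4% ± 10.7 (SD, n = 5 each). The nuclear inducible members together held 22.6% ± 3.25 and 57.3% ± 14.1, the JNK and p38 phosphatases 2.34% ± 0.52 and 8.75% ± 1.15, the cytoplasmic ERK phosphatases 11.9% ± 1.80 and 6.94% ± 2.53, and the atypical phosphatases 63.1% ± 3.72 and 27.0% ± 11.9 (SD, n = 5 each). The nuclear inducible members did not move alike. Beside Dusp1, mean shares in controls and ox-LDL libraries were 2.23% and 12.8% for Dusp4, 4.21% and 1.51% for Dusp2, and 1.26% and 1.58% for Dusp5. Ranges of the 2 groups did not overlap for the nuclear inducible, the JNK and p38 and the atypical phosphatases. Shares of one sum are bound to each other, and no test was made on them.

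**Figure D3:**
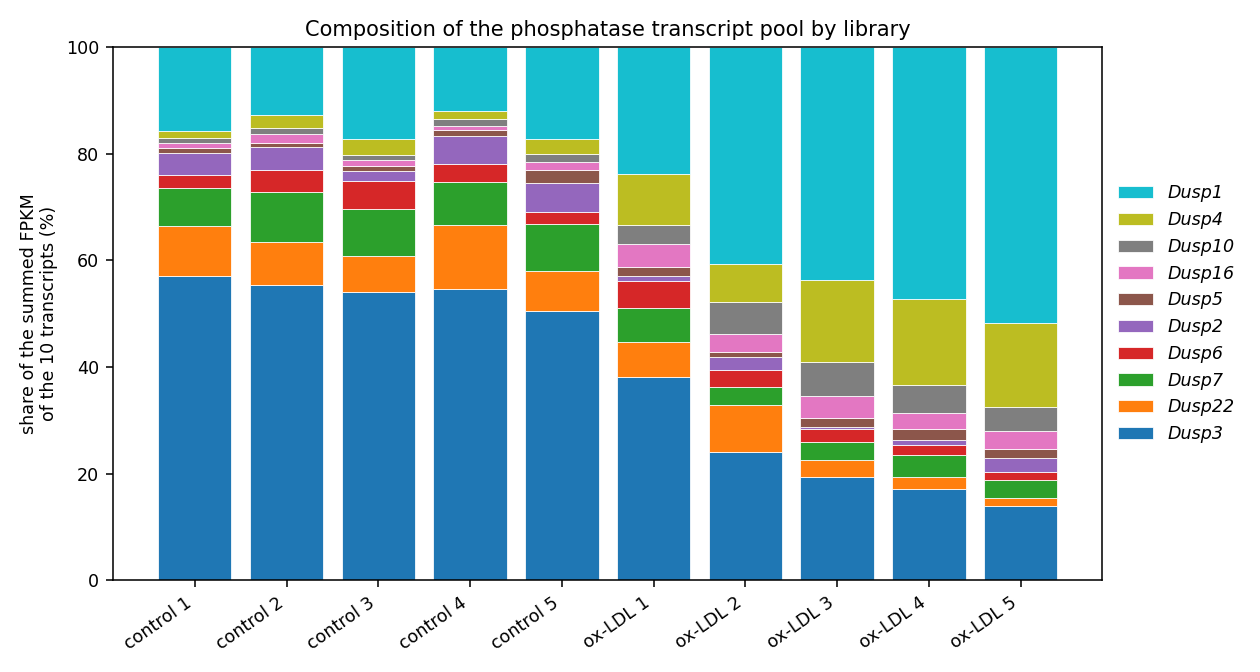
Share of each phosphatase transcript in the summed FPKM of the 10 genes (percent, stacked to 100) in each of the 10 libraries. Dusp3, at the bottom, takes 50.5% to 57.1% of the sum in controls and 13.9% to 38.1% in ox-LDL libraries, where Dusp1 and Dusp4, at the top, take more.

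The genes with the nearest pattern were found for the 6 called members, as the smallest mean absolute difference between profiles over the 10 libraries, on centred log2(CPM + 0.5) of 11204 genes. The nearest 2 were Ets2 (0.18) and Rasgef1b (0.20) for Dusp1, Sh3bp4 (0.26) and Nrp2 (0.29) for Dusp4, Maff (0.24) and Arl4c (0.25) for Dusp10, and Dcaf1 (0.14) and Trim25 (0.15) for Dusp16. For the genes that fell they were Rassf3 (0.064) and Mob3a (0.075) for Dusp3, and Bin2 (0.12) and Habp4 (0.13) for Dusp22. Every one of these 12 genes had a log2 fold change of the same sign as its member, from -1.28 to -1.07 for those near the lower members and from 1.52 to 2.79 for those near the higher ones, as the measure of likeness favours.

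Around these phosphatases, 83 other genes of the MAP kinase pathway were tested, of which 5 were called higher and 3 lower (9.40% and 5.35% of all genes tested), and their median log2 fold change was 0.04. DESeq2, here and below, was run without the filter on low counts. It called 10 higher and 7 lower of the 104 matched genes, against 1922 and 1331 over all 29700 rows. By limma-voom 5 of the pathway genes were called higher and 5 lower, against 1151 and 801 of 12654 genes tested. Counts at an unadjusted p under 0.05 by edgeR, given for some lists below, follow a looser rule. The share of all genes that pass this looser rule was not counted. It cannot be below the 26.6% called at an adjusted p below 0.05, so these counts are not read as results about the lists. The MAP kinases themselves, the substrates of the phosphatases, were not called in any of 8 cases (0 also by DESeq2 and by limma-voom, while 4 had an unadjusted p under 0.05), with a median of 0.13. The smallest p was that of Mapk11, which encodes a p38 isoform (log2 change 1.33 ± 0.46 standard error, adjusted p = 0.0513 by edgeR's quasi-likelihood test), at 0.217 to 0.514 CPM in controls and 0.428 to 1.91 in ox-LDL libraries. Upstream, 1 of 7 MAP2 kinases fell, Map2k6, an activator of p38 (log2 change -2.87 ± 0.64 standard error, adjusted p = 0.00625 by the same test), from 0.738 to 3.94 CPM to at most 0.776 CPM. Of 18 MAP3 kinases 2 rose, among them Braf, a kinase of the ERK pathway (log2 change 0.97 ± 0.19 standard error, adjusted p = 0.00302 by the same test). The call of Map2k6 was lost in 7 of the 10 fits that left out 1 library (every one but those without control replicate 5 or ox-LDL replicate 2 or 5) and that of Braf in 1 (control replicate 4).

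Of 10 kinases downstream of MAP kinases, 1 fell, Mknk1, a kinase of the translation factor eIF4E (log2 change -0.83 ± 0.17 standard error, adjusted p = 0.00367 by edgeR's quasi-likelihood test), at 60.6 to 65.9 CPM in controls and 26.6 to 46.8 in ox-LDL libraries. Of 8 scaffolds, Mapk8ip3, which gathers JNK pathway kinases, rose (log2 change 1.03 ± 0.21 standard error, adjusted p = 0.00418 by the same test), and Ksr2, a scaffold of the ERK pathway, fell (log2 change -2.46 ± 0.57 standard error, adjusted p = 0.00772 by the same test). These calls were lost in 3 of the 10 fits with 1 library left out for Mknk1 (control replicates 2 and 4, ox-LDL replicate 3), in 4 for Mapk8ip3 (control replicates 1, 3 and 4, ox-LDL replicate 3) and in 7 for Ksr2 (control replicates 1 to 4, ox-LDL replicates 3 to 5). With counts scaled by library size alone, the calls of Braf, Mknk1, Mapk8ip3 and Ksr2 were all lost. None of the 4 Sprouty and Spred inhibitors of ERK signalling was called by edgeR (2 had an unadjusted p under 0.05, DESeq2 called 2 and limma-voom 0), and the smallest p was that of Spred3 (log2 change 0.89 ± 0.22 standard error, adjusted p = 0.0105 by the same test). None of the 4 other MAP kinase phosphatases was called either (1 with an unadjusted p under 0.05, and 1 called by DESeq2 and by limma-voom), with Ptpn7, a tyrosine phosphatase of ERK and p38, at a log2 change of -0.83 ± 0.20 standard error (adjusted p = 0.0107 by the same test). Both passed without ox-LDL replicate 2, with an adjusted p of 0.00396 for Spred3.

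Of 11 further dual specificity phosphatases 1 rose, Dusp8, another phosphatase of JNK and p38, from 0.258 to 0.695 CPM in controls to 1.48 to 4.26 CPM in ox-LDL libraries (log2 change 2.63 ± 0.40 standard error, adjusted p = 6.16e-04 by edgeR's quasi-likelihood test). Of 13 transcripts that follow MAP kinase activity, among them Fos, Jun and Egr1, 1 was called (4 higher and 2 lower had an unadjusted p under 0.05, and DESeq2 called 3 higher and 1 lower). This was Ier3, an early response gene linked to ERK, which rose from 3.72 to 9.08 CPM to 29.0 to 132 CPM (log2 change 3.32 ± 0.40 standard error, adjusted p = 1.46e-04 by the same test). The calls of Dusp8 and Ier3 were kept in all 10 fits that left out 1 library. Over those fits the 83 pathway genes gave 2 to 8 calls higher and 0 to 7 lower. The median log2 fold changes of the other lists were -0.06 for the further dual specificity phosphatases, -0.0025 for MAP2 kinases, -0.0023 for MAP3 kinases, 0.011 for the downstream kinases, -0.11 for scaffolds, 0.61 for Sprouty and Spred inhibitors, -0.05 for the other MAP kinase phosphatases and 0.43 for the responsive transcripts, beside 0.10 for all genes tested. RNA levels do not report the phosphorylation of the kinases or the amount of phosphatase protein, which were not analysed here.

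**Figure D4:**
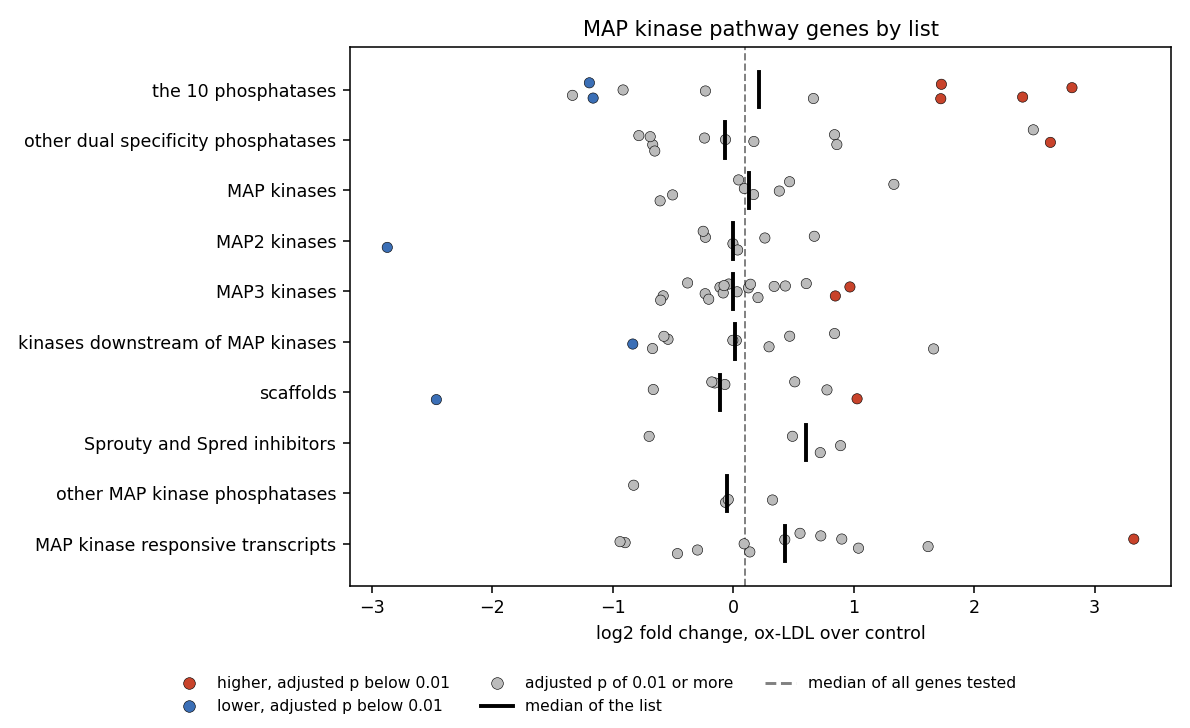
Log2 fold change, ox-LDL over control, of the 10 phosphatases and of 83 other MAP kinase pathway genes, 1 point per gene and 1 row per list, coloured where the adjusted p of edgeR's quasi-likelihood test was below 0.01. Black bars are the medians of the lists and the dashed line is the median of all genes tested (0.10).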

How the data were processed

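The authors deposited an estimated count for each gene in 10 libraries, not normalized, of which 13.6% were not whole. They also deposited length-scaled values, treated here as FPKM because counts divided by them and by the library total gave a nearly constant length per gene (median highest to lowest ratio 1.04 over 8177 genes). Per the submitters' processing notes, FastQC, HISAT2 2.0.5, SAMtools 1.4, StringTie and the build mm9 were used. The counter and its use of strand are not given in the sources used here. No column lacked a sample.

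FPKM was used as the authors deposited it. Estimated counts were rounded. The 9788 circular RNA rows (1.44% to 2.24% of counts) were left out. Genes kept by filterByExpr were scaled by TMM and tested with edgeR 4.0.16 (quasi-likelihood, robust, two-sided) in R 4.3.3, with Benjamini-Hochberg adjustment over all 12654 genes tested and a call at an adjusted p below 0.01. Standard errors came from the F statistic. Single values were also compared by two-sided exact permutation over 252 arrangements. Marker sums were scaled by library size alone. Coordinates are from GENCODE on NCBIM37 (mm9), symbols and promoters from RefSeq (GRCm38.p6).

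Named genes were the 10 members, for each pathway list up to 3 called genes with the largest changes or, with none called, the gene with the smallest p, and the 2 nearest patterns of each called member. Of 106 pathway genes listed, 104 matched a row. The members and lists were chosen with earlier results of these data known. Alternatives were DESeq2 1.42.0, limma-voom (limma 3.58.1), other scalings, filters, thresholds and row sets, removal of each library's trend on gene length, a block for replicate number, single libraries left out in turn, control replicate 5 and ox-LDL replicates 2 and 5 (which stood apart in earlier results of these data) left out together, and limma on log2(FPKM + 1) and log2(FPKM + 0.1) for genes at 1 FPKM or more in at least 5 libraries. The scripts were tested on simulated data. At the threshold used, edgeR recovered 2 of 100 genes changed by an absolute log2 fold change of 1 and 52 of 100 changed by 2. A gene that was not called can therefore still differ between the groups. False calls in the simulated data numbered 0 for edgeR, 0 for limma-voom and 19 for DESeq2. DESeq2 recovered 28 of 100 genes changed by 1 and 84 of 100 changed by 2. Replicate libraries differed by 9.53 or more in chi-square per degree of freedom, far beyond sampling noise, so none was counted as a duplicate. Protein sequences were not used here, and 1 pathway gene that met the rule for named genes is not reported here.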

Additional observations from a re-analysis of the deposited data

Results flagged for a closer look

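In 2 of the 20 sets of 5 libraries (10 genes in 2 groups), 1 library lay far from the others of its group, with a gap to the nearest that took more than 0.71 of the whole range of the group. Chance alone marks about 1 set in 20, so 1 of 20 would be met by chance. Dusp2 was at 6.15 CPM in ox-LDL replicate 5, and the next ox-LDL library was at 2.40 CPM, a gap of 0.719 of the range. Dusp5 was at 5.60 CPM in control replicate 5, and the next control was at 2.18 CPM, a gap of 0.777 of the range. The causes of these values were not tested.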

How the results depend on the processing

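Over the 10 members and 24 alternative fits, 213 of 240 log2 fold changes kept their direction and their side of the threshold, 16 fell short of it, 10 newly passed it and 1 was reversed (Dusp6, 0.024 without control replicate 3, in a range of -0.35 to 0.024 with 1 library left out). Of the 16, 13 were Dusp1 and 3 were Dusp16 (library size alone and both FPKM fits, adjusted p 0.0182 to 0.0279). Of the 10, 7 were Dusp7 and 3 were Dusp2, which passed without ox-LDL replicate 5, with the block and without the 3 libraries. The count of members called higher was 2 with library size alone, with log2(FPKM + 1), with log2(FPKM + 0.1) and with an added log2 fold change above 2. The count called lower was 4 without the 3 libraries (control replicate 5, ox-LDL replicates 2 and 5) and 0 with the added fold change. Leaving out 1 library gave 3 to 4 members higher and 2 to 4 lower.

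Over all genes, 1189 were higher and 677 lower. DESeq2 gave 1922 and 1331, an adjusted p below 0.05 gave 2045 and 1320, the added fold change 605 and 244, and leaving out the 3 libraries 1946 and 1653. Library size alone gave 704 and 583. The FPKM fits turned the balance, with 570 and 769 for log2(FPKM + 1) and 553 and 712 for log2(FPKM + 0.1), and removal of the length trend 1241 lower. Leaving out 1 library gave 826 to 1755 higher and 436 to 1502 lower, the latter without ox-LDL replicate 2, and 436 and 437 without control replicate 4 and ox-LDL replicate 3. The causes were not tested. Upper-quartile scaling and library size alone moved the median log2 fold change by -0.14 and -0.19. With the replicate number as a block, 3 members were higher and 3 lower (885 and 549 over all genes), and the calls of Map2k6, Braf, Mknk1 and Mapk8ip3 were lost. The deviations of same-numbered libraries had correlations from -0.28 to 0.44, above 0.1 in 2 of 5 cases, and 1 control correlated best with its own number, so the numbers were not taken as a pairing. Dusp5, Dusp10 and Dusp2 rest on the fewest counts, as low as 15 per library.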
